A study of Mus musculus with 24 samples.

Results

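Protein protected sites (PPSs) lying wholly inside the 3′ untranslated regions (3′ UTRs) of mRNAs were examined in differentiating MEL cells. PPSs are stretches of RNA that crosslinked proteins shielded from an RNase. A site was taken when it lay within a 3′ UTR exon of a protein-coding transcript on its own strand and touched no annotated coding sequence (CDS) on that strand. Sites of 20 to 40 nt, the size of a ribosome footprint, were left out. This gave 41880 of the 356432 remaining sites, with 13594 of 114907 at day 0, 12027 of 119487 at day 2 and 16259 of 122038 at day 4.

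MEL is a mouse erythroleukemia line, a transformed line arrested at an early erythroid stage that matures when dimethyl sulfoxide (DMSO) is added. The groups were undifferentiated cells at 0 days and cells grown for 2 or 4 days in 2% DMSO, all crosslinked with formaldehyde, with 2 replicates at each day. Each replicate was split into 4 libraries, digested with a single-strand RNase (ssRNase, RNaseONE) or a double-strand RNase (dsRNase, RNaseV1), with proteins present or removed beforehand. The 24 libraries thus gave 12 call sets, 1 per day, RNase and replicate, and the calls of a day were merged into 1 list in which each site names the call sets it came from.

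The 3′ UTR is the stretch of an mRNA between the stop codon and the poly(A) tail. Proteins and microRNAs that bind there set how long the mRNA lasts, how often it is translated and where it lies in the cell. In maturing red cells, which shut down transcription before they lose the nucleus, such control is the main one left, and its best known case is the transferrin receptor mRNA Tfrc, whose 3′ UTR carries iron-responsive hairpins bound by the iron regulatory proteins. Pumilio proteins, which recruit the deadenylase complex, are another well studied class of 3′ UTR binders.

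A search of all annotated 3′ UTRs for the iron-responsive hairpin (a C bulge, 5 bases, the loop CAGTGN and 5 bases pairing with the first 5, with G-T pairs allowed, on the transcript's strand) found 128 matches in 125 genes. Of these, 11 lay wholly in a site on some day, in 9 genes, and 3 of the 11 were in Tfrc. The 4 Tfrc matches are shown because they carry the best known protein binding in any erythroid 3′ UTR, with the loop in capitals and 6 bases of flank on each side. Positions are of the hairpin itself on the plus strand of chromosome 16 in mm10.
Hairpin at chr16:32631225-32631241: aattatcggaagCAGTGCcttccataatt
Hairpin at chr16:32631604-32631620: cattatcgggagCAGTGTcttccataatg
Hairpin at chr16:32631669-32631685: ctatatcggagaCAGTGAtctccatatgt
Hairpin at chr16:32631716-32631732: aattatcgggaaCAGTGTttcccataatt

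These hairpins began 888, 1267, 1332 and 1379 nt after the stop codon. At day 4 the first lay in a dsRNase site of replicate 1, and those at 1267 and 1379 nt lay in dsRNase sites called in both replicates. At day 0 the hairpin at 1267 nt lay in a dsRNase site of replicate 2 and that at 1379 nt in a site called by dsRNase in replicate 2 and ssRNase in replicate 1. At day 2 none of the 4 lay wholly in a site, the sites of 20 to 40 nt included, and the hairpin at 1332 nt did so on no day.

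**Figure D1:**
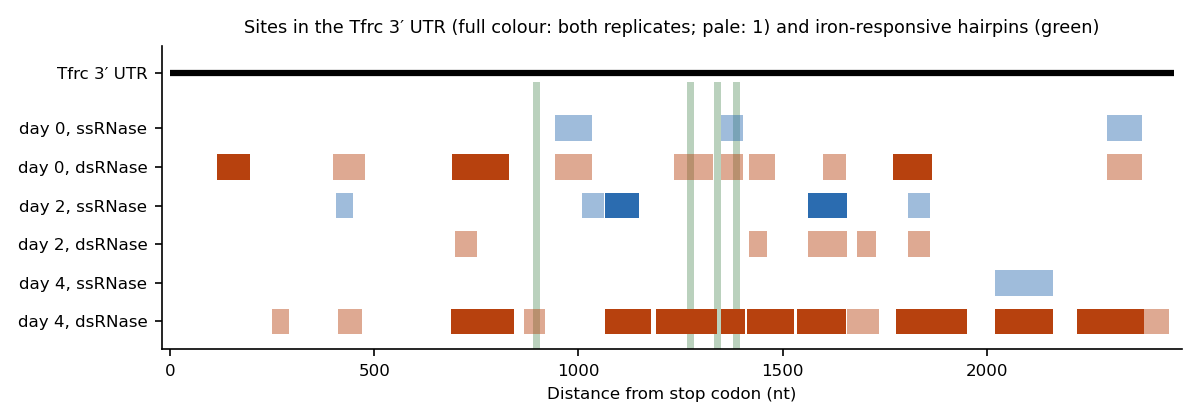
Sites of the Tfrc 3′ UTR by distance from the stop codon (nt), with 1 row per day and RNase. Full colour marks a site called in both replicates by that RNase and pale colour in 1, and green bands mark the hairpins. The day 4 dsRNase row holds more sites than any other, 13 in replicate 1 and 10 in replicate 2.

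Tfrc encodes the receptor that brings iron into the cell, and it was picked here after its values were seen. Its 3′ UTR held 692 and 613 nt in sites in the 2 replicates of day 0, 279 and 425 nt at day 2, and 1425 and 1252 nt at day 4. Both day 4 replicates were above, and both day 2 replicates below, those of day 0. By call set, ssRNase gave 2 and 1 sites at day 0, 2 and 5 at day 2, and 0 and 1 at day 4, while dsRNase gave 7 and 6, 3 and 2, and 13 and 10.

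The highest-scoring 3′ UTR site of day 0 lay in Slc38a2, a neutral amino acid transporter gene on the minus strand of chromosome 15. That site, chr15:96687488-96687797, had a score of 114.39, the caller's measure of protected over deproteinised coverage, which for a merged site may be a sum over its calls. It was called by both RNases in both replicates, and ended 96 nt before the transcript end. It and the next site upstream, chr15:96687809-96687979 with a score of 85.51, held 5 Pumilio elements (TGTANATA), which are shown with the element in capitals because all of them lay in sites on all 3 days.
Element at chr15:96687881-96687888: ataaacTGTACATAtattgt
Element at chr15:96687856-96687863: tgtattTGTAAATAgattgt
Element at chr15:96687845-96687852: atagatTGTATATActgttg
Element at chr15:96687817-96687824: ttcaagTGTATATAttcccc
Element at chr15:96687529-96687536: cttgtaTGTATATAgtgtaa

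The first 4 elements lay in 1 site at each day, called by both RNases and both replicates at days 0 and 4 and by all but dsRNase replicate 2 at day 2. The highest-scoring sites of the other days were in Dynll2, a dynein light chain gene, at day 2 (chr11:87980433-87980557, score 111.11, 875 nt after the stop codon) and in Ogt, which encodes the enzyme that adds N-acetylglucosamine to proteins, at day 4 (chrX:101683651-101684041, score 109.06). Both were called in both replicates. The Ogt 3′ UTR was covered at 60.3% and 63.2% of its 2021 nt at day 0, 51.3% and 38.6% at day 2 and 65.8% and 55.8% at day 4, with days 0 and 4 overlapping.

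Before the results by day, the call sets were compared. The ssRNase set of day 0 replicate 2 stood apart, with 67.6% of its 3′ UTR sites on the plus strand. The other sets had between 49.8% and 52.1%, apart from 43.2% for ssRNase of day 4 replicate 2. The shares and positions by day, the gene counts, the lists and the named genes were therefore recomputed without the first set. The comparisons of RNases and with CDS sites, the coverage along the 3′ UTR, the merged regions and the word counts were not. The number of sites also differed between sets, from 14832 for dsRNase of day 2 replicate 2 to 73952 for ssRNase of the same replicate. The lists hold no read counts, so the depth behind a site is unknown. Of 9 erythroid marker genes, 8 had an exonic site in each replicate of days 0 and 2 and all 9 in each replicate of day 4, while none of the 11 markers of T cells, B cells, myeloid cells, endothelium, fibroblasts or liver had one on any day.

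The first comparison asked what share of all sites fell inside 3′ UTRs on each day. In the pooled list of day 0 it was 11.8%, with a 95% Wilson interval from 11.6% to 12.02%. Day 2 had 10.1%, with 9.90% and 10.2% as its bounds, and day 4 had 13.3%, bounded by 13.1% and 13.5%. Such bounds cover counting error only. By replicate it was 11.8% and 11.4% at day 0, 10.6% and 9.01% at day 2, and 13.2% and 13.6% at day 4. The difference between day 4 and day 0 was 1.49 points (95% Newcombe interval 1.23 to 1.76, and 1.41 to 2.27 over the 4 pairs of replicates), and that between day 2 and day 0 was -1.76 points (-2.02 to -1.51, and -2.79 to -0.778 over the pairs). With 2 replicates a day no exact permutation test can give a p below 0.333, so no test was made of the days.

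The higher share of day 4 did not stand clear of day 0 within either RNase. With dsRNase the share was 20.5% and 18.4% at day 0, 15.5% and 15.2% at day 2, and 17.4% and 18.9% at day 4. With ssRNase it was 7.61% and 6.41%, 7.35% and 7.78%, and 7.59% and 8.86%. With the sites of both replicates pooled, the difference between day 4 and day 0 was 1.17 points with ssRNase and -1.76 points with dsRNase. Days 0 and 4 overlapped for both RNases, and the lower dsRNase shares of day 2 were the only values by which a later day stood clear of day 0. The pooled lists differed in their mix, since dsRNase sets held 27862 and 32624 sites at day 0, 30485 and 14832 at day 2, and 54935 and 40195 at day 4. Without the ssRNase calls of day 0 replicate 2, the difference between day 4 and day 0 was 0.117 points.

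**Figure D2:**
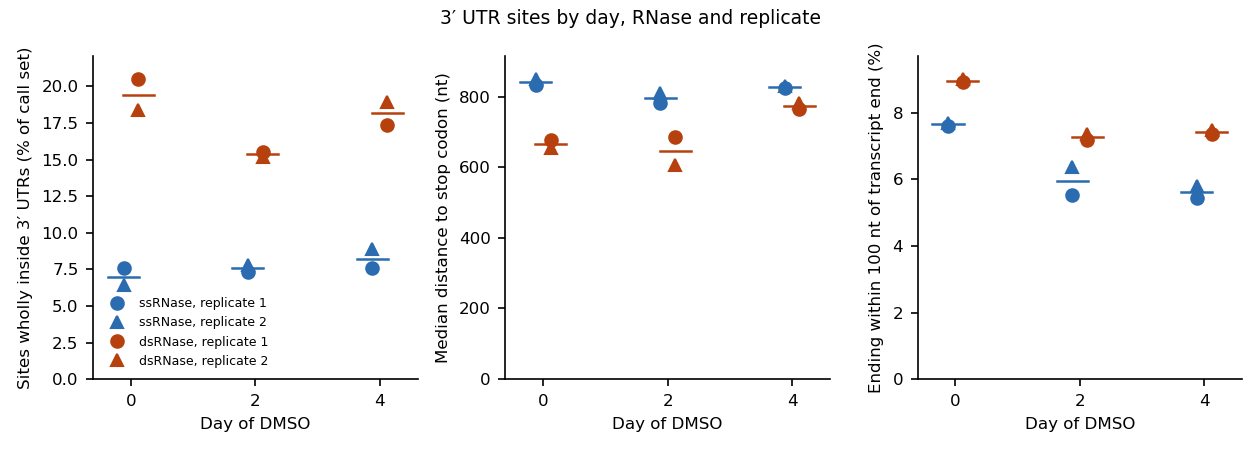
Left, percent of each call set's sites that lay wholly inside 3′ UTRs. Middle, median distance of those sites from the stop codon (nt). Right, percent of them ending within 100 nt of the transcript end. Points are the 2 replicates at each day, bars their mean. The dsRNase sets held the larger share on every day, 15.2% to 20.5% against 6.41% to 8.86%.

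The RNases were then compared within the same 6 cultures (3 days with 2 replicates), by an exact two-sided sign-flip permutation test of the paired differences, with Benjamini-Hochberg adjustment over 6 measures. A p of 0.0312 is the smallest that 6 pairs can give. A merged site counts in full for each replicate and RNase it names. The 2 cultures of a day therefore share sites, as do the 2 RNases of a culture, and the 6 pairs are not independent. Sites in 3′ UTRs made up 7.6% ± 0.788 (SD, n = 6) of ssRNase sites and 17.7% ± 2.05 of dsRNase sites, lower with ssRNase in 6 of 6 cultures by 10.1 points on average (exact permutation p = 0.0312, adjusted p = 0.0375). ssRNase sites lay farther from the stop codon, with a median distance of 821 ± 22.9 nt against 695 ± 66.9 nt, and farther from the transcript end, at 1116 ± 57.7 nt against 1019 ± 42.8 nt. They were richer in G and C, at 45.8% ± 1.91 against 41.3% ± 1.497. Each of these differences held in 6 of 6 cultures, with the same exact permutation p and adjusted p. Fewer ssRNase sites ended within 100 nt of the transcript end, 6.41% ± 1.02 against 7.89% ± 0.840, again in 6 of 6 cultures with that p. Median length was 65.2 ± 5.95 nt with ssRNase and 63.7 ± 3.88 nt with dsRNase, a difference of 1.5 ± 2.17 nt that did not pass the exact test (adjusted p = 0.25). The 3′ UTRs that held ssRNase sites were longer, with medians of 2356 to 2558.5 nt over the call sets against 2086 to 2355 nt with dsRNase. The part of their length in the greater distances from both ends was not tested.

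Sites in 3′ UTRs were set beside the sites wholly inside CDS (89100 in all) of the same cultures, with adjustment over 4 measures. G and C made up 43.2% ± 1.78 of 3′ UTR sites and 50.6% ± 1.14 of CDS sites, lower in 6 of 6 cultures (exact permutation p = 0.0312, adjusted p = 0.125). The share of a culture's sites with a dsRNase call of either replicate was 70.1% ± 15.6 in 3′ UTRs and 63.1% ± 8.27 in CDS, higher in 5 of 6 cultures (exact adjusted p = 0.188). Median lengths were 62.3 ± 3.93 nt and 61.5 ± 2.95 nt (exact adjusted p = 0.312). Calls of both replicates were carried by 46.5% ± 5.98 and 47.9% ± 4.22 of sites (exact adjusted p = 0.292). For all 4 measures the cultures of a day share merged sites, so the 6 pairs are not independent. For these last measures of replicate and dsRNase support they share calls as well. None of the 4 differences passed the adjusted test. With 6 pairs the smallest p is 0.0312, so a lone measure among 4 cannot reach an adjusted p below 0.125. The adjusted test could therefore not decide the G and C difference, which was -8.58 to -6.49 points over the cultures.

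Along the 3′ UTR, coverage by sites was highest 100 to 200 nt after the stop codon, or 100 nt farther in day 2 replicate 2, and lower towards the transcript end. Over 3723 genes with a 3′ UTR of at least 1000 nt, 8.58% and 8.31% of positions 100 to 200 nt after the stop codon lay in sites at day 0, 6.05% and 5.65% at day 2, and 11.1% and 9.60% at day 4. At 900 to 1000 nt the values were 5.34% and 4.97%, 4.01% and 3.65%, and 7.02% and 6.59%. In the first 100 nt they were 4.80% and 4.75%, 4.15% and 3.85%, and 6.11% and 5.52%. In the last 100 nt of the transcript they were 3.21% and 2.90%, 2.02% and 1.98%, and 3.86% and 3.63%. These values take both RNases together and are not scaled to the number of sites called. The dsRNase sets held 27862 and 32624 sites at day 0, 30485 and 14832 at day 2, and 54935 and 40195 at day 4. The part of set size in the order of the days was not tested. At 100 to 200 nt the days overlapped with ssRNase alone, at 3.92% and 2.76%, 2.36% and 4.10%, and 3.53% and 4.21%. With dsRNase alone they did not, at 5.97% and 6.48%, 4.30% and 2.12%, and 9.41% and 7.15%. The first and last windows are low in part by construction, because a site that reaches the CDS or runs past the annotated end was not counted.

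**Figure D3:**
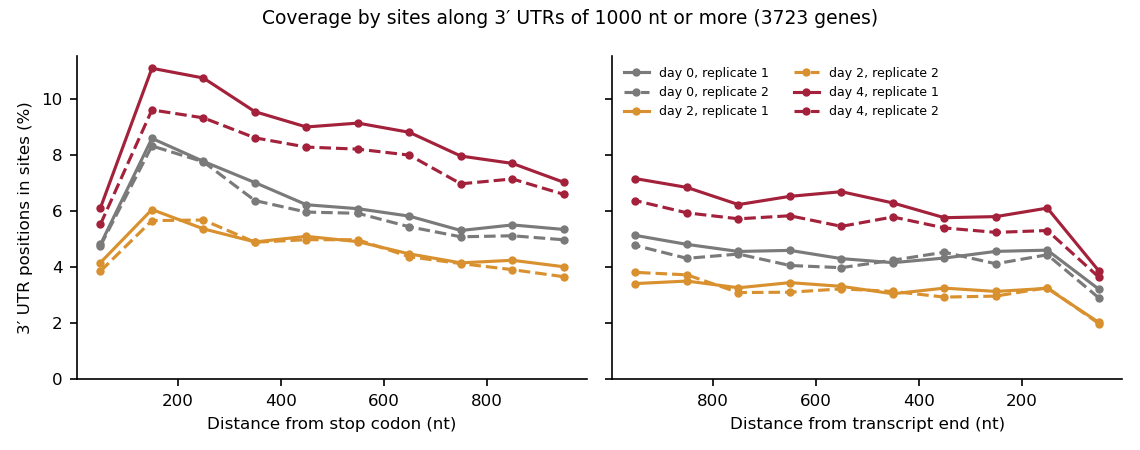
Percent of 3′ UTR positions lying in sites, in 100-nt windows from the stop codon (left) and from the transcript end (right), for 3723 genes, with 1 line per day and replicate. Coverage was highest 100 to 200 nt after the stop codon for 5 of the 6 lines, day 2 lay lowest and day 4 highest in every window. Lines take both RNases together and are not scaled to the number of sites called, which for dsRNase was largest at day 4.

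The share of sites ending within 100 nt of the transcript end was 8.16% and 8.47% at day 0, 6.42% and 6.73% at day 2, and 6.78% and 6.86% at day 4. Both later days lay below both replicates of day 0, and did so with each RNase taken alone. With ssRNase the values were 7.62% and 7.71% at day 0, 5.53% and 6.38% at day 2 and 5.45% and 5.79% at day 4, and with dsRNase they were 8.94% and 9.01%, 7.20% and 7.38%, and 7.36% and 7.49%. The median distance to the transcript end was 1011 and 1010 nt at day 0, 1065 and 1074 nt at day 2, and 1091 and 1109 nt at day 4. The median length of the 3′ UTRs that held the sites moved with it, from 2227 and 2192 nt at day 0 to 2377 and 2389 nt at day 4, and its part in these differences was not tested.

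The sites of each day were typically short and supported by few calls. Median lengths were 60, 55 and 62 nt at days 0, 2 and 4, with the longest at 436, 508 and 479 nt and 351, 447 and 385 sites under 20 nt. Sites resting on 1 call were 66.6%, 68.3% and 58.2%, and sites called in both replicates 28%, 26.7% and 36.6%. Sites called by dsRNase alone were 52.8% at day 0, 34.7% at day 2 and 60.8% at day 4, those by ssRNase alone 29.7%, 48.8% and 18.2%, and those by both RNases 17.5%, 16.5% and 21.0%.

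Merging overlapping sites over the days gave 26754 regions. Of these, 5213 held a site at day 0 only, 4394 at day 2 only, 6933 at day 4 only, and 3153 (11.8%) on all 3 days. Only 472 regions had calls of both replicates on all 3 days. Of the day 0 sites in 3′ UTRs, 50.6% overlapped a site of day 4, and 48.8% of the day 0 sites in CDS did so. Of the day 4 sites, 42.1% in 3′ UTRs and 48.5% in CDS overlapped a site of day 0. Regions found on all days had a median length of 118 nt against 51 to 56 nt for those of 1 day. Merging sites of several days in itself lengthens a region, and longer sites have more room to overlap.

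The second question was which genes gained or lost sites. For each gene the nucleotides of its annotated 3′ UTR lying in sites with a call of a given replicate were summed, and 6315 genes had a site on some day. A gene gained sites when both replicates of the later day had one and neither of day 0 did, and lost them in the reverse case. At day 4, 514 genes gained sites (8.14% of the 6315) and 385 lost them (6.10%). Coverage was higher at day 4 in 1862 genes (29.5%) and lower in 1043 (16.5%), counting those whose replicates did not overlap between the days. At day 2 there were 380 genes gaining (6.02%), 400 losing (6.33%), 968 higher (15.3%) and 1529 lower (24.2%). With the sites of 20 to 40 nt kept, 427 genes gained and 268 lost sites at day 2, and with ssRNase alone 422 gained and 184 lost them, so that the balance of gains and losses at day 2 depended on these choices. For day 4, ssRNase alone gave 316 genes gaining and 293 losing sites, and dsRNase alone 584 gaining and 266 losing them. Sites in both replicates of all 3 days were found in 1461 genes (23.1%). Gains and losses also arise between replicates, as 1882 genes at day 0 and 1552 at day 4 had a site in 1 replicate and not the other.

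A gain of sites and a gain of mRNA cannot be told apart in these lists, so CDS coverage is given for the genes that gained or lost sites and for each list. Of the 514 genes that gained 3′ UTR sites at day 4, 346 had a CDS site at day 0 already, CDS coverage was higher at day 4 in 201, lower in 59 and overlapping in 254. Of the 385 that lost them, 272 still had a CDS site at day 4, and CDS coverage was higher in 41, lower in 161 and overlapping in 183. Over all 6315 genes CDS coverage was higher in 1710 and lower in 1355.

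The gene with the largest gain was Btg2, an antiproliferative gene whose product binds the CCR4-NOT deadenylase. Its 2199-nt 3′ UTR on chromosome 1 had no site at day 0, 243 and 336 nt at day 2, and 1100 and 970 nt (50.02% and 44.1%) at day 4. Its 2 strongest day 4 sites, scored 99.39 and 75.32, began 281 and 1914 nt after the stop codon and were called in all 4 call sets. Its CDS also went from 0% in both replicates to 32.7% and 14.9%.

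The other genes named by the rule for gains had 0 nt in both day 0 replicates. Bcl2l11, which encodes the proapoptotic protein BIM, had 887 and 688 nt at day 4, Mxd4, a MYC antagonist, 711 and 560 nt, and Pdrg1 503 and 503 nt, or 65.8% of its 3′ UTR. B4galt1, a galactosyltransferase gene, had 597 and 487 nt, March8, a membrane-bound ubiquitin ligase gene, 428 and 480 nt, Mrm1 425 and 425 nt, and St3gal2, a sialyltransferase gene, 636 and 416 nt. All but Mxd4 already had sites in both replicates of day 2, from 43 to 248 nt. In 7 of these 8 genes, Btg2 among them, the CDS held no site at day 0 either, and B4galt1 had 3.67% and 4.22%.

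Among the losses, Plekha1 had 735 and 718 nt in sites at day 0 and Kif21b, a kinesin gene, 530 and 389 nt. Lcp2, the adaptor SLP-76 of haematopoietic signalling, had 323 nt in both replicates, Slc2a3, a glucose transporter gene, 340 and 320 nt, and Hmgb2, a chromatin protein gene, 286 nt in both. Pck2 had 342 and 256 nt, Hk2, a hexokinase gene, 255 and 284 nt, and Spn, which encodes the surface protein CD43, 336 and 248 nt. At day 4 all 8 had none. CDS sites were gone from both day 4 replicates in Plekha1, Kif21b, Lcp2 and Hk2. They stayed in Slc2a3, at 33.3% and 29.2% of the CDS at day 0 and 26.1% and 16.8% at day 4, and in Hmgb2, at 35.1% and 35.7% and then 37.2% and 24.9%. The 286 nt of Hmgb2 were dsRNase calls only.

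Sites in both replicates of day 2 and none on the other days were found in 116 genes. The 4 with the most covered nucleotides were Pttg1 (securin, which holds back sister chromatid separation) with 266 and 266 nt, Aurka (the mitotic kinase Aurora A) with 189 and 189 nt, Anks3 with 186 and 186 nt and Bod1, a regulator of chromosome alignment at mitosis, with 142 and 135 nt. The equal values arise because each of those sites was called in both replicates and merged. Pttg1 and Anks3 were called by ssRNase alone. The Aurka sites were called by dsRNase in replicate 1 and by ssRNase in replicate 2, so that neither RNase called them in both replicates. All 4 had CDS sites at days 0 and 4 in at least 1 replicate.

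**Figure D4:**
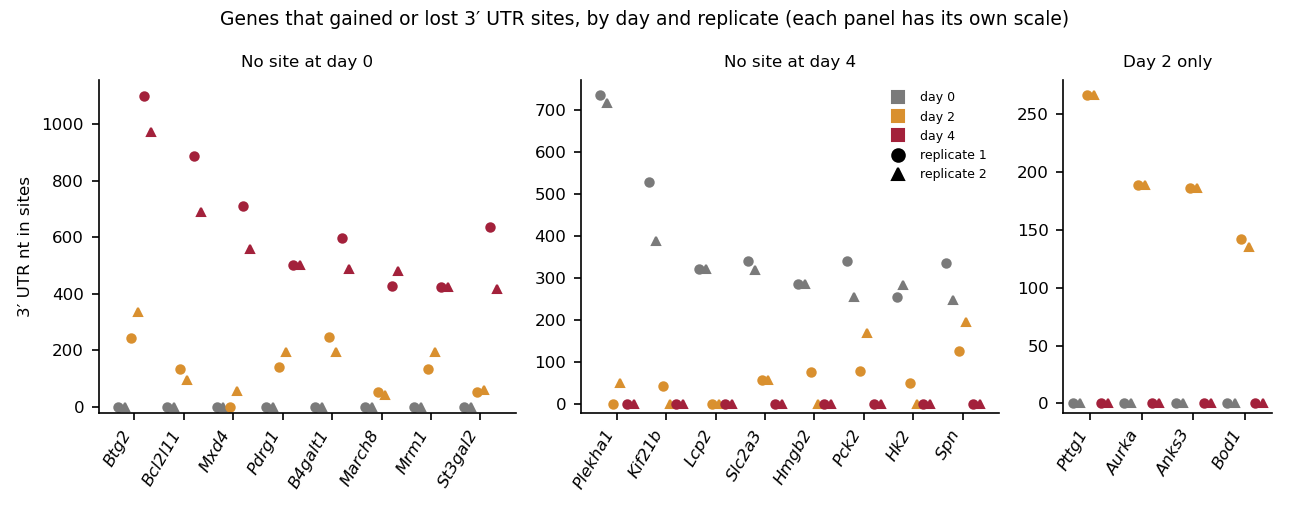
Nucleotides of the 3′ UTR lying in sites, for the 8 genes with the largest gain at day 4, the 8 with the largest loss and the 4 with sites at day 2 only. Colours are days and symbols replicates, and each panel has its own vertical scale. Day 2 lay between the other days for most of the gained genes, as in Btg2 with 243 and 336 nt between 0 and 1100 nt.

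Other 3′ UTRs were covered in all cultures, and the 6 with the most covered nucleotides in their lowest culture follow. Ddx17, an RNA helicase gene, had 1694 and 1360 nt at day 0, 1334 and 1410 nt at day 2 and 2457 and 2399 nt at day 4. Tardbp, which encodes the RNA-binding protein TDP-43, had 1398 and 1094, 1095 and 1487, and 1839 and 1738 nt. Hnrnpu had 2266 and 2390 nt at day 0, 1060 and 1663 nt at day 2 and 2123 and 1753 nt at day 4, lower on both later days. Fubp1 had 2430 and 2419, 1040 and 1648, and 1760 and 1831 nt, lower on both later days. Bcl2, the antiapoptotic gene, had 1493 and 1035, 1540 and 1347, and 1810 and 1898 nt. D10Wsu102e also met the rule, through an annotated 3′ UTR of 122583 nt of which at most 2.37% lay in sites. Without the ssRNase calls of day 0 replicate 2, days 0 and 4 overlapped in Hnrnpu and Fubp1.

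In all, 10 lists of genes of erythroid and 3′ UTR biology were then followed. Each was read against the background of 29.5% higher and 16.5% lower at day 4, or 15.3% and 24.2% at day 2. No list was tested, and the median change in percent coverage over all 6315 genes was 0.520 points at day 4 and -0.121 points at day 2. Coverage of a gene takes both RNases together, and the dsRNase sets were larger at day 4 than on the other days. Values by RNase are given for some genes only.

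**Figure D5:**
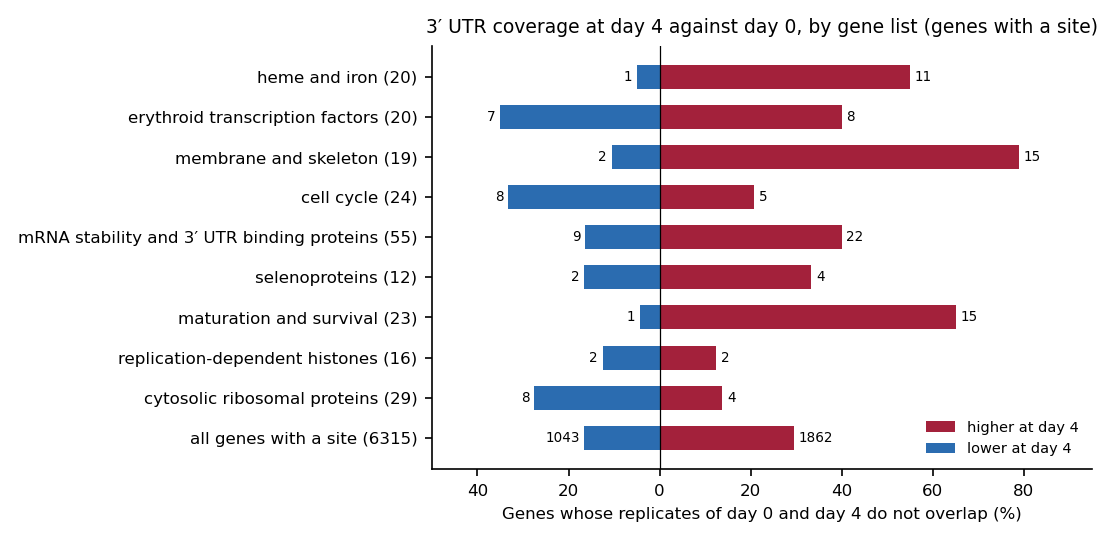
Percent of the genes with a 3′ UTR site in each list whose coverage was higher (right) or lower (left) at day 4 than at day 0 in replicates that did not overlap. Numbers at the bars are genes, and numbers in parentheses genes with a site. The list of membrane and skeleton genes had 15 of 19 higher, against 1862 of 6315 over all genes.

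Of 27 genes of heme synthesis and iron handling, 20 had a site, and coverage at day 4 was higher in 11, lower in 1 and overlapping in 8, with a median change of 7.80 points. Slc25a37 (mitoferrin), which carries iron into mitochondria, had 65 and 149 nt at day 0, 942 and 1054 nt at day 2 and 2286 and 2189 nt at day 4, or 76.6% and 73.3% of its 2986-nt 3′ UTR. Its CDS coverage overlapped between the days, 49.6% and 37.3% at day 0 and 51.1% and 41.5% at day 4. Abcb10, which encodes a mitochondrial transporter, had 241 and 152 nt at day 0 and 675 and 943 nt at day 4. In dsRNase calls it had 198 and 99 nt and then 592 and 853 nt. In ssRNase calls it had 43 and 53 nt and then 83 and 133 nt. The enzyme genes Urod and Uros and the ferrireductase gene Steap3 gained sites. CDS coverage in the list was higher in 5 genes and lower in 6.

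Of 22 genes of the red cell membrane and its skeleton, 19 had a site, 15 were higher at day 4, 2 lower (Cd44 and Tmod3) and 2 overlapping, with a median change of 15.6 points and 5 genes gaining sites. Sptb (erythroid beta spectrin) went from 51 and 0 nt at day 0 through 339 and 444 nt to 1684 and 1473 nt. Gypc (glycophorin C) went from 113 and 264 nt to 666 and 814 nt. Slc4a1, the anion exchanger band 3, had no site at days 0 and 2 and 153 nt in both replicates of day 4. CDS coverage was also higher at day 4 in 11 genes of this list and lower in 0.

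The 20 erythroid transcription factor genes with a site were divided, with 8 higher, 7 lower and 5 overlapping, and a median change of 1.12 points. Tal1, a master regulator of the lineage, went from 419 and 788 nt at day 0 to 1839 and 1276 nt at day 4, and Foxo3 from 268 and 70 nt to 1281 and 1189 nt. In Tal1 the dsRNase calls held 346 and 438 nt and then 1797 and 1276 nt. Its ssRNase calls held 363 and 350 nt and then 412 and 308 nt, which overlap. Klf1, which activates the adult beta globin gene, had 103 nt in both replicates of day 0, 51 and 67 nt at day 2 and none at day 4, from dsRNase on each day, while its CDS coverage overlapped (18.1% and 5.13% at day 0, 10.8% and 18.3% at day 4). Myb, which keeps progenitors dividing, went from 293 and 311 nt to 58 and 0 nt, and its CDS from 14.4% and 9.70% to 5.03% and 0%. The other genes with lower coverage were Bcl11a, E2f2, Ikzf1, Lmo2 and Nfe2l1. CDS coverage in the list was higher in 4 genes and lower in 11.

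Of 24 cell cycle genes with a site, 5 were higher at day 4 and 8 lower, and 5 lost their sites altogether. Those 5 were Ccnb1 (cyclin B1), Cdk1, Mcm3 (a subunit of the replicative helicase), Plk1 and Rrm2 (a ribonucleotide reductase subunit). Plk1, a mitotic kinase gene, had 97 nt in both replicates of day 0, but this 1 stretch came from ssRNase in replicate 2 and dsRNase in replicate 1, so that without the ssRNase calls of day 0 replicate 2 the days overlapped. Ccnd2 (cyclin D2) went the other way, from 290 and 316 nt to 1915 and 1491 nt. Its dsRNase calls held 167 and 251 nt and then 1752 and 1223 nt. Its ssRNase calls held 123 and 109 nt and then 163 and 268 nt. CDS coverage was higher in 3 genes of the list and lower in 8.

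Among 55 genes with a site that encode mRNA stability factors and 3′ UTR binding proteins, 22 were higher at day 4 and 9 lower. At day 2 there were 6 higher and 21 lower, where 15.3% of all genes with a site were higher and 24.2% lower. CDS coverage at day 4 was higher in 16 and lower in 12. Zfp36l2, whose product binds AU-rich elements and recruits deadenylases, had 596 and 447 nt at day 0 and 1271 and 1165 nt at day 4. Cpeb4, which encodes a cytoplasmic polyadenylation factor, had 118 and 106 nt and then 1456 and 1299 nt, and Cnot7, a deadenylase gene, 86 and 0 nt and then 312 and 233 nt. In Zfp36l2 the increase lay in dsRNase calls (596 and 447 nt, then 1194 and 1118 nt), with ssRNase at 370 and 0 nt and then 223 and 133 nt. Pum2, a Pumilio gene, was lower at day 4, with 900 and 932 nt and then 896 and 624 nt.

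Genes of erythroid maturation, autophagy and survival had 23 members with a site, 15 higher at day 4 and 1 lower (Sqstm1), with 8 gaining sites. Cish, a feedback inhibitor of erythropoietin signalling, went from 43 and 0 nt to 650 and 484 nt, Pim1, a survival kinase gene, from 67 and 67 nt to 448 and 323 nt, and Bnip3l (NIX), required for clearing mitochondria, from 416 and 351 nt to 820 and 959 nt. Mcl1, an antiapoptotic gene, had 1033 and 1115 nt at day 0 and 1523 and 1316 nt at day 4. CDS coverage was higher in 8 genes of the list and lower in 3.

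Of 12 selenoprotein genes with a site, 4 were higher and 2 lower, and CDS coverage was higher in 4 and lower in 2. Txnrd1, a thioredoxin reductase gene, went from 224 and 215 nt to 96 and 0 nt and Selenos from 49 nt in both replicates to none, while Gpx4, which reduces lipid peroxides, had 0 nt at day 0 and 50 and 0 nt at day 4, which overlap. Of 16 replication-dependent histone genes with a site, 2 were higher and 2 lower, and leaving out 1 replicate gave 2 to 5 for each. CDS coverage was higher in 3 and lower in 3. Hist1h1c, a linker histone gene, had 0 and 162 nt at day 0 and 339 and 384 nt at day 4, Hist1h2bc 0 and 100 nt and then 176 nt in both, and Hist1h4i 90 nt in both replicates, 149 nt in both at day 2 and none at day 4. Without the ssRNase calls of day 0 replicate 2, no histone gene was lower. A histone stem-loop, the hairpin that ends these mRNAs, was found 46 times in histone 3′ UTRs. It lay wholly in a 3′ UTR site 0 times at days 0 and 2 and 1 time at day 4, and only in a site outside the rule used here 7, 1 and 3 times.

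The short 3′ UTRs of cytosolic ribosomal proteins held sites in 29 of 90 genes, with 4 higher at day 4 and 8 lower, a median change of -2.06 points. CDS coverage in this list had the opposite balance, higher in 11 genes and lower in 4. The 3 with the largest change in percent coverage were Rpl36al and Rpl22l1, which had none at days 0 and 2 and 75 and 54 nt in both replicates of day 4, and Rps26, with 51 nt in replicate 1 and 0 in replicate 2. Reads of ribosomal protein genes can be shared with pseudogenes. None of the 7 globin genes had a site wholly inside its 3′ UTR of 74 to 132 nt. At day 4, Hbb-bs had 2 sites touching its 3′ UTR, 1 reaching into the CDS and 1 running past the annotated end, and Hba-a1, Hba-a2 and Hbb-bt had 1 each.

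The sequence of the sites was compared with the rest of the same 3′ UTRs, the parts in no site of that day, by counting short words on the transcript's strand per 1000 positions at which they could start. Words may overlap each other, 9 were searched, and no test was made. The Pumilio element TGTANATA was more frequent in sites in 6 of 6 cultures, at 0.362 to 0.569 against 0.221 to 0.230. The ratio was 2.52 and 2.41 at day 0, 2.06 and 1.91 at day 2, and 1.58 and 1.69 at day 4, so that the days did not overlap. With dsRNase alone days 2 and 4 did overlap, at 2.16 and 1.72 against 1.59 and 1.86. The element was held by 2.33% to 3.43% of sites, and by 1.196% of 59-nt windows tiled over all 3′ UTRs of the genes. Many sites are longer than 59 nt, so shares of sites and of windows, here and below, are not on 1 scale. The polyadenylation signal AATAAA lay in 5.65% of sites of day 4 replicate 1 and in 4.11% of windows. Per position it was 0.786 times as frequent in those sites as in the rest.

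The word GGACT, the most common setting of N6-methyladenosine, was also more frequent in sites in all cultures, by 1.84 to 2.66 times, and lay in 9.98% to 12.5% of sites against 5.07% of windows. Less frequent in sites in 6 of 6 cultures were the C-rich word CCTCCC (0.252 to 0.435 times), the AU-rich element TATTTAT (0.497 to 0.794 times), the cytoplasmic polyadenylation element TTTTAT (0.483 to 0.783 times) and the polyadenylation signal AATAAA (0.558 to 0.986 times). By RNase, AATAAA was less frequent in all 6 ssRNase sets (0.393 to 0.775 times) and in 4 of 6 dsRNase sets, with 1.19 and 1.04 times in those of day 0. The GU word GTGTG also differed by RNase. It was more frequent than in the rest in all 6 ssRNase sets, 1.09 to 1.39 times, and less frequent in all 6 dsRNase sets, 0.719 to 0.891 times. Base composition also differed by day. G and C made up 41.1% and 41.8% of sites at day 0 and 44.8% and 45.9% at day 2. At day 4 they made up 43.0% and 42.9%, and in the rest 42.7% to 43.1%. Their share in sites was thus highest at day 2, whereas the Pumilio ratio was lowest at day 4. The part of base composition in the ratios of words was not tested.

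MicroRNAs miR-451a and miR-144-3p, made from 1 precursor cluster, are among the most abundant of the erythroid lineage. Their mature sequences (RefSeq, GRCm38.p6, chromosome 11) are shown with the seed, bases 2 to 8, in capitals, because sites in named genes hold matches to it.
mmu-miR-451a: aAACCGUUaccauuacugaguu
mmu-miR-144-3p: uACAGUAUagaugauguacu

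The match to the miR-144-3p seed, ATACTGT, was more frequent in sites than in the rest in 6 of 6 cultures (1.18 to 1.94 times) and in all dsRNase sets (1.43 to 2.35 times), while ssRNase sets ranged from 0.815 to 1.72 times. It lay in 0.706% to 1.23% of sites and in 0.538% of windows. In Pim1 it lay in a site at day 4 only, and in Hnrnpu in a site at day 0 only. In Slc38a2 and Zfp36l2 it lay in sites on all 3 days. The match to the miR-451a seed, AACGGTT, is rare and ranged from 0.859 to 1.36 times. It lay in dsRNase sites of Sptb in both replicates of day 4 and in ssRNase sites of Tardbp in both replicates of day 2. The places in Pim1, Hnrnpu, Sptb and Tardbp are printed with the match in capitals.
Pim1, chr17:29496031-29496037: taaagtATACTGTacaggg
Hnrnpu, chr1:178328501-178328507: ccacaaATACTGTattact
Sptb, chr12:76582917-76582923: gctggaAACGGTTctgtac
Tardbp, chr4:148612966-148612972: tgtataAACGGTTtgagat

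Pumilio elements of other named genes also changed sides between days. In Tal1, elements at chr4:115069693-115069700 and chr4:115071476-115071483 lay in sites called in both replicates of day 4 and in none at days 0 and 2, and in Kif21b and Hk2 an element each lay in ssRNase sites of both day 0 replicates and in none later. In Bcl2 an element lay in sites of all 4 call sets at days 0 and 4 and in none at day 2.
Tal1, first element: ctgtccTGTACATActctat
Tal1, second element: agtctgTGTACATAgcacgc
Kif21b, chr1:136177893-136177900: gacaacTGTACATAgtgtat
Hk2, chr6:82726552-82726559: ttgttcTGTATATAgctggc
Bcl2, chr1:106539826-106539833: actgaaTGTAGATAatgggt
A word in a site describes the sequence there and does not show which protein protected it.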

How the data were processed

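PIP-seq libraries of MEL cells were sequenced by the authors. Per the labels' processing notes, cutadapt 1.2.1, TopHat2 2.0.10 and mm10 were used, and per the methods PPSs were called with a modified CSAR, a Poisson comparison of footprint and structure-only coverage. The deposited score is the enrichment score of that caller (lowest 5.40), calls of a day were merged, the score of a merged site may be a sum over its calls (no source states this), and a merged site counts in full for each replicate and RNase it names. The files give no read counts.

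Sites were assigned with GENCODE M21 and bedtools 2.31.1, the stop codon counted as CDS. Distances were taken in the transcript. GRCm38.p6 gave sequences. Python 3.11.15, pandas 2.3.3 and scipy 1.17.1 were used, and the code was tested on simulated data. Replicates share a culture across RNases by construction, which gives the pairs. Named genes were, without Gm and Rik symbols and 3′ UTRs shared with another gene, the 8 largest gains and 8 largest losses by the lower replicate, the 4 largest of day 2 only, the 6 most covered throughout, 3 of each list by change in percent coverage, and the gene of each day's top score. Other list genes given with values were picked after these were seen. Members, genes and lists were chosen with earlier results of these data known. Symbols of S6 kinases and of 1 binding protein were removed from the ribosomal protein list after its values were seen. Alternatives covered the length filter, replicate support, score, transcript choice, RNase, list size, strand of the CDS rule, pairing and each replicate. Some genes that met the rule are not reported here.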

Additional observations from a re-analysis of the deposited data

Results flagged for a closer look

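From day 0 to day 4 the median distance of 3′ UTR sites from the stop codon moved in opposite directions with the 2 RNases. With dsRNase it went from 678 and 654 nt to 764 and 782 nt, by 106.75 nt on average, and with ssRNase it went from 833 and 848 nt to 825 and 829 nt, a change of -13.75 nt on average. All 4 pairs of replicates had these signs for each RNase (86 to 127.5 nt and -23.5 to -4 nt). Relative position, the middle of the site as a fraction of the 3′ UTR, moved likewise, by 0.0140 with dsRNase and -0.0304 with ssRNase. The difference between the RNases was not tested.

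Sites of 20 to 40 nt, which the analysis left out, made up 36.6% and 31.3% of all 3′ UTR sites in the 2 replicates of day 2. The values were 19.9% and 20.5% at day 0 and 18.0% and 18.8% at day 4. Of the sites in CDS they made up 34.4% and 29.2% at day 2 and 21.7% and 22.9% at day 0.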

How the results depend on the processing

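The share of sites in 3′ UTRs was 1.49 points higher at day 4 than at day 0. This was 0.935 with sites of 20 to 40 nt kept, 2.86 with calls of both replicates, 2.62 at a score of 10 or more, 1.38 to 1.96 without each replicate in turn, 1.17 with ssRNase alone and -1.76 with dsRNase alone. For day 2 the -1.76 points became 0.363 with ssRNase alone, -3.46 with dsRNase alone and -2.82 to -1.25 without each replicate. The median distance to the stop codon was 64.5 nt larger at day 4, or 87 nt with calls of both replicates, -13.75 nt with ssRNase, 106.75 nt with dsRNase and 54.5 to 74.5 nt without each replicate. At day 2 it was 13.5 nt larger, and these settings gave 38.5, -44.75, -20.75 and 2.5 to 24.5 nt, with 34 nt at a score of 10 or more. The share ending within 100 nt of the transcript end was lower in all these settings. Its change of -1.49 points at day 4 became -2.51 with both replicates, -2.25 at that score, -2.04 with ssRNase and -1.65 to -1.34 without each replicate, and its -1.74 at day 2 became -2.87 and -2.68 in the first 2 of these settings.

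Gene counts moved with the score, the RNase and the replicates. At a score of 10 or more, genes gaining sites were 1108 at day 4 and 769 at day 2, and genes losing them 615 and 796. With ssRNase alone 316 gained and 293 lost sites at day 4, and 184 lost them at day 2. With dsRNase alone 584 gained and 266 lost sites at day 4, and 147 gained them at day 2. Without each replicate in turn, when 1 sample stands for its day and the rule is easier to meet, gains were 814 to 893 at day 4 and 648 to 744 at day 2, and losses 558 to 752 and 682 to 804. Without the ssRNase calls of day 0 replicate 2, an alternative chosen after the data were seen, the shares differed by 0.117 points at day 4 and -3.14 at day 2, the distances to the stop codon by 95 and 44 nt, and the share near the transcript end by -1.76 points at day 4. Gains were then 608 and 466, and losses 301 and 321. All alternatives for position by day, and the CDS rule for the comparison of RNases, were likewise chosen after seeing the data.

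Between RNases, the difference in distance to the transcript end was 72.8 nt with calls of both replicates (exact permutation, adjusted p = 0.075), that to the stop codon 124 nt among single-call sites (exact, adjusted p = 0.112), and that of length changed sign at a score of 10 or more (-0.167 nt) and among single-call sites (-0.5 nt). Without each culture the exact p cannot go below 0.0625, and the differences were -10.6 to -9.49 points for the share, 111 to 142 nt and 89.6 to 108 nt for the distances to stop codon and end, -1.58 to -1.40 points for the last 100 nt and 4.07 to 4.71 points for G and C. Without the pairing of cultures, no call between RNases changed, and the G and C difference between 3′ UTR and CDS sites, -7.37 points, had an exact permutation adjusted p of 0.037. At a score of 10 or more the share with calls of both replicates was 0.878 points higher in 3′ UTRs. With ssRNase alone, Hnrnpu had 36 nt more and Zfp36l2 -7 nt at day 4. Of the other recomputed values of named genes, 614 kept direction and call, 33 lost and 11 gained the call. Of the recomputed counts of the gene lists, 205 stayed within 1.5 times and 35 moved further. Without each replicate in turn, ribosomal protein genes had 4 to 8 higher, cell cycle genes 6 to 8 higher, selenoprotein genes 5 to 7 higher and 2 to 4 lower, and heme and iron genes and maturation genes 1 to 3 lower each. The cause was not tested for any of these changes. With 2 replicates a day and no read counts, depth and the number of mRNA molecules were not set against the sites here.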
